A study of Mus musculus with 6 samples.

Results

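The Lsd1 peaks described here are those centred in an exon, 3′ UTR included, and more than 2000 bp from every transcription start site (TSS). They were 1991 of the 95852 peaks called in 3 Lsd1 ChIP-seq libraries of C2C12 cells, a mouse myoblast line. In wild-type cells on day 1 in myogenic medium, which holds horse serum, 968 of 43426 peaks were exonic in this sense. In wild-type cells on day 1 in adipogenic medium, which holds fetal calf serum with isobutylmethylxanthine, indomethacin, dexamethasone, insulin, T3 and rosiglitazone, 323 of 18893 were. In the LSD1(OE) cells on day 1 in the same adipogenic medium, 700 of 33533 were. LSD1(OE) cells carry a lentiviral, tetracycline-inducible Flag-LSD1 transgene, were selected with G418 and received doxycycline from before differentiation onward, so the line, the drugs and the level of LSD1 cannot be told apart. Members were found on mm10 with the curated RefSeq transcripts, 45756 transcripts of 26180 genes.

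Lsd1 (Kdm1a) is a lysine demethylase that removes mono- and dimethyl marks from histone H3 lysine 4, usually within the CoREST complex with histone deacetylases, and it is known to act at both promoters and enhancers. Binding sites for sequence-specific factors also occur inside exons, where the same bases encode protein or belong to the 3′ UTR of the transcript. A ChIP-seq peak in an exon is a stretch of DNA recovered with the antibody and does not tell whether the RNA made from it is touched. In skeletal muscle cells, E-boxes are the sites of the myogenic bHLH factors, and AP-1 sites are those of Fos and Jun proteins.

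Each condition had 1 ChIP library and 1 input library, so no value below has a replicate and no test between conditions was possible. Intervals are 95% Wilson intervals, which cover counting error only. After duplicates were limited, 46155625 ChIP tags remained for the myogenic, 63915769 for the adipogenic and 55193310 for the LSD1(OE) library, and the smallest peaks had 27, 35 and 30 tags. The score of a peak is 10 times −log10 of its MACS p-value, and MACS had scaled ChIP tags up to the input by 1.90, 1.28 and 1.82, so scores of different libraries are not on the same scale. No gene expression was measured in these files, and the identity of the cells was not checked against markers here.

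Stretches of coding sequence are shown first, for an E-box and an AP-1 motif, the 2 of 5 searched whose shares at exonic summits lay above those of exonic sequence at large in each library with intervals apart. They belong to the coding-exon peaks of highest score that had the motif within 60 bp of the summit, and they were chosen after their values were seen. Each is 30 bases long on mm10, written 5′ to 3′ on the strand of the gene, with the motif in capitals, and lies in coding sequence of every curated transcript over it.

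For the E-box CAGCTG, which reads the same on both strands, the stretches are these.
Carns1, exon 9 of 10, chr19:4169662-4169691, minus strand: gcctaagacgctCAGCTGaggaggcagcgg
Sohlh2, exon 10 of 11, chr3:55207710-55207739, plus strand: ctccccatgaggCAGCTGccaggacaaatc
Traf5, exon 2 of 14, chr1:192070506-192070535, minus strand: cagtttgtggagCAGCTGgaagaacgctac
Agap2, exon 18 of 19, chr10:127091630-127091659, plus strand: caggctggcagcCAGCTGtgtgcagacatc
Arid3a, exon 7 of 9, chr10:79950879-79950908, plus strand: gccatgacagccCAGCTGcccatgaacatc

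For the AP-1 site TGAGTCA, or TGACTCA when read on the other strand, they are these.
Mcidas, exon 7 of 7, chr13:112999025-112999054, plus strand: ctcggtgaatcTGAGTCAcagtgagctgga
Tmem171, exon 2 of 4, chr13:98692219-98692248, minus strand: ggtgccaggatgTGACTCAgattgggcaca
Crybg1, exon 4 of 22, chr10:43998652-43998681, minus strand: agcttcagcggcTGAGTCAgctagggagtc
Elfn2, exon 2 of 2, chr15:78673565-78673594, minus strand: ctgcccggcctgTGAGTCAccccacaccct
Pmvk, exon 5 of 5, chr3:89468516-89468545, plus strand: gtggacgatgcTGAGTCAgagtgtggtctg

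The E-box stretch of Carns1, carnosine synthase, lay 20.5 bp from the summit of a myogenic peak with a score of 763.77. The stretch of Sohlh2, a germ cell bHLH factor, lay 57.5 bp from the summit of an adipogenic peak with a score of 745.33, and that of Traf5, a TNF receptor adaptor, 35.5 bp from the summit of an LSD1(OE) peak with a score of 676.6. In Agap2 the E-box was 3.5 bp from the summit of a myogenic peak (score 636.77). The AP-1 stretches shown belonged to peaks of lower score, the highest being the myogenic peak in Mcidas, a regulator of multiciliated cells, with 400.64. Such coding stretches, with chromosome 18 left out, were found in 96 genes for the E-box and in 13 genes for the AP-1 site. The AP-1 stretches were thus drawn from fewer genes, so these scores do not compare the motifs. On all chromosomes, 464 myogenic, 148 adipogenic and 341 LSD1(OE) peaks were centred in coding sequence. No matching count of stretches was made for other coding sequence.

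The E-box CAGCTG was present within the 500 bp around the summit in 46.5% (43.4 to 49.6%) of myogenic, 55.1% (49.7 to 60.4%) of adipogenic and 44.0% (40.4 to 47.7%) of LSD1(OE) exonic peaks. It was present in 26.1% of 229444 windows of the same length placed along all exonic sequence more than 2000 bp from a TSS. The AP-1 site TGAGTCA was present at 20.7% (18.2 to 23.3%), 25.4% (20.9 to 30.4%) and 18.4% (15.7 to 21.5%) of exonic summits, against 7.46% of those windows. Summits of intronic peaks held the E-box in 39.5, 46.9 and 39.5% and the AP-1 site in 26.0, 29.7 and 24.4%, in the same order of libraries. In each library the E-box share was thus higher at exonic than at intronic summits and the AP-1 share lower, but the intervals of the adipogenic AP-1 shares and of the LSD1(OE) E-box shares overlapped, and no test was run. The other motifs searched on both strands were the E-box CACGTG, at 6.92, 5.26 and 8.14% of exonic summits against 6.93% of windows, the TEAD motif CATTCC, at 27.2, 30.3 and 24.9% against 24.6%, and the RUNX motif TGTGGT, at 37.3, 39.3 and 34.7% against 32.6%. A TGAGTCA and a CAGCTG can overlap by the letters CA. A match describes the letters in the window and is not a measured site of any factor. The windows and the intronic summits also had a lower median GC content than the exonic summits, as given below. The part of base composition in the motif shares was not tested.

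Both motifs were found in each kind of exonic sequence. In coding exons the E-box was at 48.5, 61.5 and 45.2% of summits, against 29.7% of coding windows, and in 3′ UTRs at 44.1, 50.9 and 41.9%, against 22.7% of 3′ UTR windows. The AP-1 site was at 18.8, 19.6 and 14.7% of coding summits against 7.23%, and at 23.5, 34.5 and 22.5% of 3′ UTR summits against 7.48%. Sites were denser near the summit than at the edge of the window. Of 631 E-boxes at myogenic exonic summits, 26.6% were within 50 bp and 12.5% lay 200 to 250 bp away, and of 229 AP-1 sites 27.5% and 10.9% did. In the adipogenic library 27.0% of 263 E-boxes and 30.8% of 91 AP-1 sites were within 50 bp, and in the LSD1(OE) library 26.5% of 438 and 31.3% of 150.

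**Figure D1:**
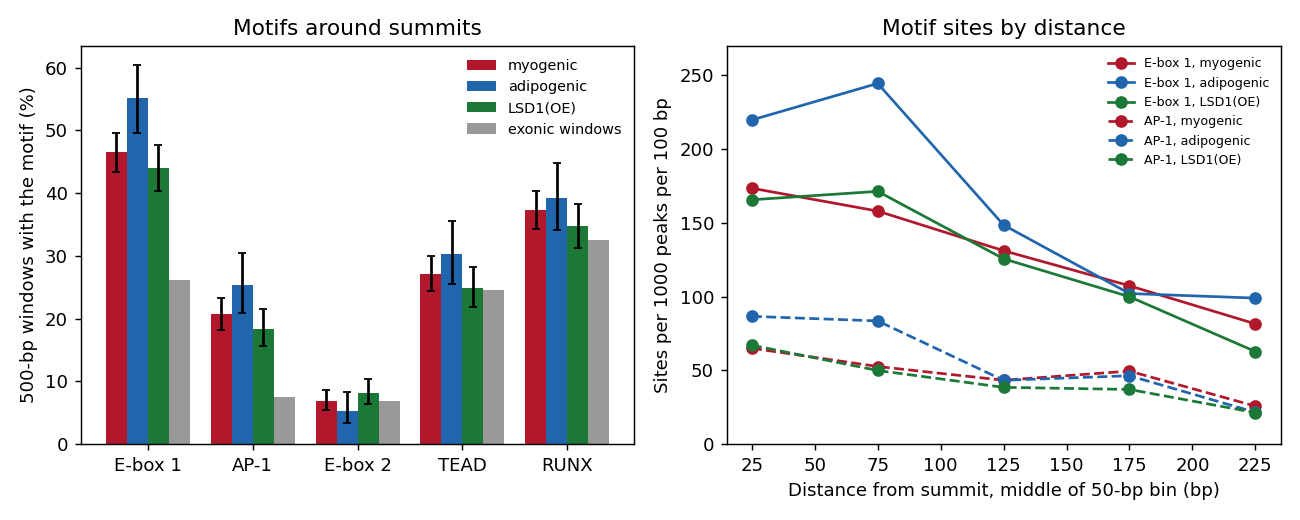
Left, the share of 500-bp windows around exonic Lsd1 summits that hold each motif, in percent, with 95% Wilson intervals as bars; E-box 1 is CAGCTG and E-box 2 CACGTG, and grey bars are windows along all exonic sequence. Right, motif sites per 1000 exonic peaks per 100 bp by distance from the summit; E-box 1 and AP-1 stand above the grey bars in the 3 libraries (E-box 1 from 44.0 to 55.1% against 26.1%), and their sites fall with distance, though not at every step.

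Exonic summits were richer in G and C than summits in introns. The median GC content of the 500 bp was 52.4, 53.2 and 52.8% in the myogenic, adipogenic and LSD1(OE) libraries, against 48.4, 49.4 and 49.0% for intronic peaks and 45.8% for exonic windows. Windows with at least 50% GC and an observed-to-expected CpG ratio of at least 0.6, as in CpG islands, made up 8.78, 14.2 and 9.71% of exonic summits. They made up 0.943, 1.41 and 1.26% of intronic summits, 1.53% of exonic windows and 64.2, 66.6 and 63.4% of promoter summits. Coding exons had the larger share, 14.4, 23.0 and 16.1%, while 3′ UTRs had 2.70, 6.90 and 3.88%.

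The CpG-island-like exonic peaks were 85 in the myogenic, 46 in the adipogenic and 68 in the LSD1(OE) library. Their median score was 201.3, 151.6 and 148.6, against 87.29, 98.77 and 82.45 for the other exonic peaks. Peaks of both other libraries overlapped 43.5% (33.5 to 54.1%) of them in the myogenic library against 16.9% (14.5 to 19.5%) of the others, 73.9% (59.7 to 84.4%) against 53.8% (47.9 to 59.6%) in the adipogenic library and 34 of 68 (38.4 to 61.6%) against 21.4% (18.3 to 24.7%) in the LSD1(OE) library. A peak of at least 1 other library overlapped 69.4% against 40.9%, 100% (46 of 46) against 81.9%, and 76.5% against 50.5%. A TSS of the GENCODE vM21 annotation, which lists more transcripts than curated RefSeq, lay within 2000 bp of 37.6, 52.2 and 41.2% of them and of 24.6, 22.7 and 22.2% of the others. Whether such TSSs bear on the peaks was not tested.

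Exonic peaks were 2.23% (2.09 to 2.37%) of myogenic, 1.71% (1.53 to 1.90%) of adipogenic and 2.09% (1.94 to 2.25%) of LSD1(OE) peaks. Among peaks more than 2000 bp from a TSS the shares were 3.13, 2.65 and 2.94%, and exons took up 2.26% of the genome bases at that distance, ratios of 1.39, 1.18 and 1.30. The differences in number went with the length of the lists: among the 18893 peaks of highest score in each library, 316 were exonic in the myogenic, 323 in the adipogenic and 310 in the LSD1(OE) library. Just past the 2000 bp threshold, within 100 bp of it, lay 7, 2 and 8 exonic peaks, and 11, 4 and 6 exon-centred peaks lay within 100 bp on its other side and were not counted. By the GENCODE annotation, 25.7, 26.9 and 24.0% of exonic peaks had a TSS within 2000 bp, against 14.3, 15.0 and 14.6% of intronic peaks. Chromosome 15, where several peaks named below lie, held the most peaks of any chromosome in each library (3730, 1972 and 2848). Of these 98, 36 and 63 were exonic, beside 111, 37 and 78 exonic peaks on chromosome 11.

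Within genes, exonic peaks fell roughly where exonic bases are, with the departures given here. The last exon held 60.3% (57.2 to 63.4%) of myogenic, 60.1% (54.6 to 65.3%) of adipogenic and 58.0% (54.3 to 61.6%) of LSD1(OE) exonic peaks, and it holds 56.2% of the exonic bases considered. Internal exons held 37.1% (34.1 to 40.2%), 35.6% (30.6 to 41.0%) and 38.6% (35.0 to 42.2%), against 42.2% of the bases. Coding sequence held 47.9, 45.8 and 48.7%, against 49.2%. The 3′ UTRs held 38.2% (35.2 to 41.3%), 35.9% (30.9 to 41.3%) and 36.9% (33.4 to 40.5%), below their 42.2% of the bases in each library. Exons of non-coding transcripts held 11.6% (9.71 to 13.7%), 14.9% (11.4 to 19.2%) and 11.6% (9.41 to 14.2%), above their 7.45% of the bases in each library. The 5′ UTRs, at 2.27, 3.41 and 2.86%, were also above their 1.15%, with only 22, 11 and 20 peaks. Per 1000000 exonic bases there were 16.4, 5.25 and 12.1 peaks in coding sequence and 15.3, 4.79 and 10.7 in 3′ UTRs.

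**Figure D2:**
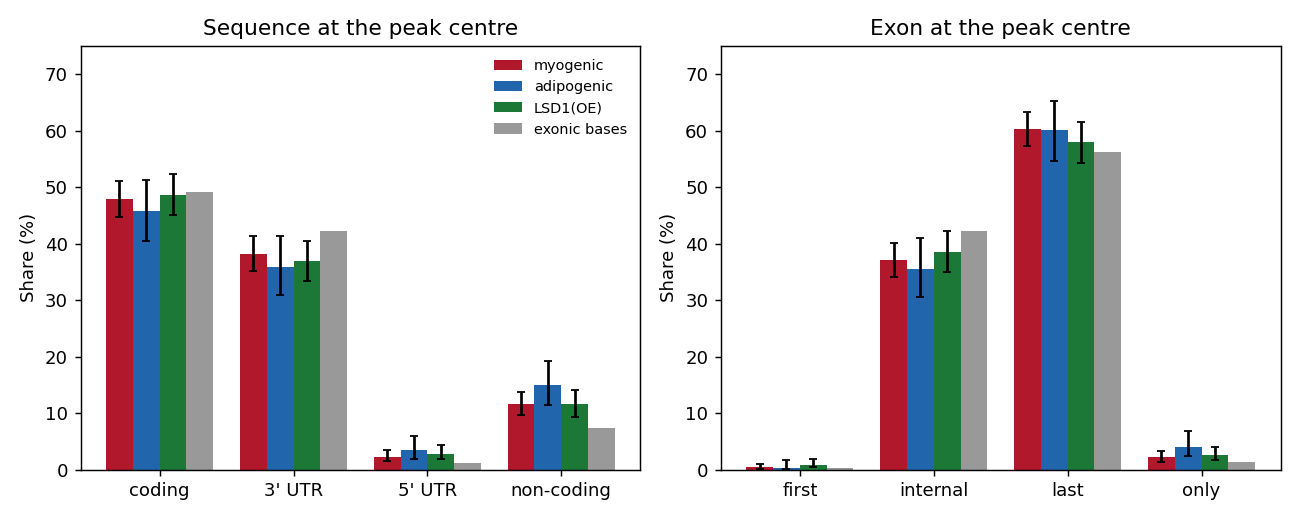
Share of exonic Lsd1 peaks, in percent, by the sequence (left) and the exon (right) at the peak centre, in the 3 libraries; error bars are 95% Wilson intervals and grey bars give the share of all exonic bases more than 2000 bp from a TSS. About as many peaks as bases lie in coding sequence (47.9, 45.8 and 48.7% against 49.2%). Non-coding exons stand above their share of bases and 3′ UTRs below theirs (38.2, 35.9 and 36.9% against 42.2%).

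The median length of exonic peaks was 846 bp (quartiles 654 and 1137) in the myogenic, 1074 bp (930 and 1434) in the adipogenic and 866 bp (673 and 1135) in the LSD1(OE) library, and their median score was 91.8, 103 and 86.2, beside 851, 1101 and 916 bp and 92.4, 102 and 99.99 for intronic peaks. A score under 100 was found for 53.4, 47.1 and 56.4% of them, against 52.6, 48.6 and 50.6% of all peaks more than 2000 bp from a TSS. The exon under the centre was often shorter than the peak, in 44.5, 52.0 and 47.3%. Coding exons with a peak had a median length of 243.5, 269 and 297 bp, and exons covered a median of 39.6, 36.1 and 44.8% of the bases of these peaks. In 3′ UTRs the exon had a median length of 2431, 2510 and 2304.5 bp and the median peak was exonic over 100% of its bases in each library. The summit itself lay in an exon for 81.8, 78.0 and 79.3% of exonic peaks. Only 1 myogenic, 1 adipogenic and 3 LSD1(OE) exonic peaks reached over a curated TSS.

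The highest score of all exonic peaks was that of the myogenic peak at H2bc6, a histone H2B gene (3137.09, 702 tags, 6187 bp), centred 2125 bp from a TSS in the 3′ UTR of the last exon. At the same place the adipogenic and LSD1(OE) libraries had peaks of 6381 and 9270 bp with scores of 2160.05 and 3100, which counted as promoter peaks because their centres lay 1800 and 394 bp from a TSS. Reads of histone genes can be shared with near-identical copies. The next myogenic peaks were at Hes7, a bHLH repressor of the segmentation clock (score 1797.35, where the adipogenic library had an exonic peak of 518.31 and the LSD1(OE) library an intergenic one of 1103.25), G630071F17Rik (1503.97), Tchh, trichohyalin of the hair follicle (1473.43), and Grk6, a kinase of G protein-coupled receptors (1319.02). The strongest adipogenic exonic peaks were at Tchh (960.81), Faim2, an inhibitor of Fas-mediated apoptosis (892.14), Fam178b (865.32), Sohlh2 (745.33) and Irs1, the insulin receptor substrate (734.44).

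In the LSD1(OE) library the strongest exonic peaks were at Bhlhe41, a bHLH repressor of the circadian clock (2591.72), Snai1, a zinc finger repressor known to recruit Lsd1 (2464.56), Crocc2, a ciliary rootlet gene (1787.57), Cst6, a cysteine protease inhibitor (1595.41), and A530013C23Rik (1311.9). The peak at Snai1 was 10424 bp long, held 1324 tags at a fold enrichment of 17.72 and was centred in the last exon. Myogenic and adipogenic peaks were present there too, with best scores of 2228.22 and 1297.07, the first centred in an intron and the second at the promoter. At Bhlhe41 the myogenic library had an exonic peak (1096.64) and the adipogenic library a promoter peak (1137.02). Whether a peak counted as exonic thus depended on its extent around the same site.

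The longest exonic peak lay over Myc, the proto-oncogene on chromosome 15, in the LSD1(OE) library, with 16675 bp, 2049 tags and a score of 698.77. The myogenic and adipogenic libraries each had 2 peaks within it, of 7510 and 8627 bp in all, with best scores of 2655.01 and 968.2 and their best peaks at the promoter. The next longest in the LSD1(OE) library were Snai1 and Gm1995 (8428 bp, fold 2.55). The longest in the adipogenic library were at Aqp2, a water channel (5525 bp), Irs1 (5475 bp) and Ank, a pyrophosphate transporter (4957 bp), and in the myogenic library at H2bc6, Hjurp, the CENP-A chaperone (5503 bp), and G630071F17Rik (4673 bp). The Hjurp peak lay within the last exon over all of its length and, with 451 tags, had a fold of 1.78 and a score of 71.84, with no peak in the other libraries.

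The 1991 peaks merged into 1531 separate regions of 1375 host genes. An exonic peak was present in the myogenic library alone in 658 regions, in the LSD1(OE) library alone in 418 and in the adipogenic library alone in 118. Myogenic and LSD1(OE) libraries shared 134 regions, myogenic and adipogenic 61, adipogenic and LSD1(OE) 32, and 110 regions (7.18%) had an exonic peak in each of the 3 libraries. Counting peaks of any class, 548 regions were in the myogenic library alone, 329 in the LSD1(OE) library alone and 50 in the adipogenic library alone. By this count 264 regions (17.2%) were present in the 3 libraries. The full lists hold 43426 myogenic, 33533 LSD1(OE) and 18893 adipogenic peaks, and regions were not merged over all peaks. There were 887 host genes in the myogenic, 313 in the adipogenic and 659 in the LSD1(OE) library, and 119 genes hosted an exonic peak in each.

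**Figure D3:**
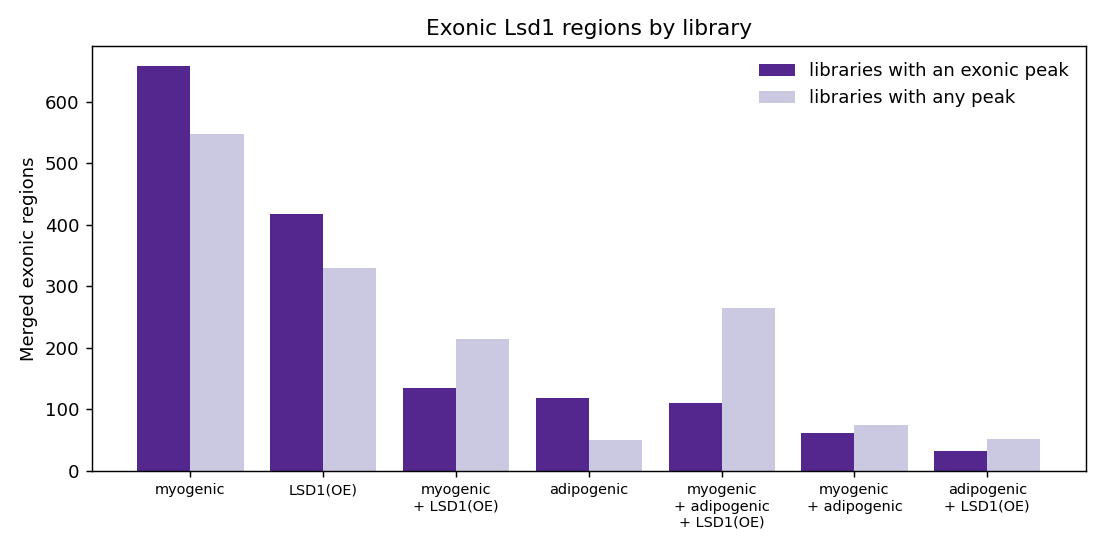
Number of merged exonic Lsd1 regions by the libraries that have a peak in them; dark bars count exonic peaks and pale bars peaks of any class. The tallest dark bars are single libraries (658 myogenic, 418 LSD1(OE)), and the number with all 3 libraries rises from 110 to 264 when peaks of any class count.

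A peak of the adipogenic library overlapped 25.8% (23.2 to 28.7%) of myogenic exonic peaks by at least 1 bp, beside 35.4% of all myogenic peaks. A peak of the LSD1(OE) library overlapped 36.8% (33.8 to 39.9%) of them, beside 46.5%. Of adipogenic exonic peaks, 73.4% (68.3 to 77.9%) were overlapped in the myogenic and 67.8% (62.5 to 72.7%) in the LSD1(OE) library, beside 80.5 and 74.5% of all adipogenic peaks. Of LSD1(OE) exonic peaks, 47.9% (44.2 to 51.6%) were overlapped in the myogenic and 29.3% (26.0 to 32.8%) in the adipogenic library, beside 59.8 and 42.0%. All 6 shares were below those of all peaks, which include promoter peaks. Intronic peaks were overlapped in 29.5 and 37.8% (myogenic), 73.2 and 67.8% (adipogenic) and 49.4 and 35.7% (LSD1(OE)), close to the exonic shares except for LSD1(OE) peaks in the adipogenic library and myogenic peaks in the adipogenic library, where the exonic share was lower.

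Sharing rose with the score. Myogenic exonic peaks with scores of 50 to under 100, 100 to under 250 and 250 or more were overlapped by an adipogenic peak in 8.90, 30.4 and 73.5%, beside 11.8, 33.7 and 74.4% of all myogenic peaks in these classes. LSD1(OE) exonic peaks were overlapped by an adipogenic peak in 11.4, 38.9 and 77.6%, beside 17.3, 44.0 and 84.5%. All 51 adipogenic exonic peaks with a score of 250 or more were overlapped by a myogenic peak.

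**Figure D4:**
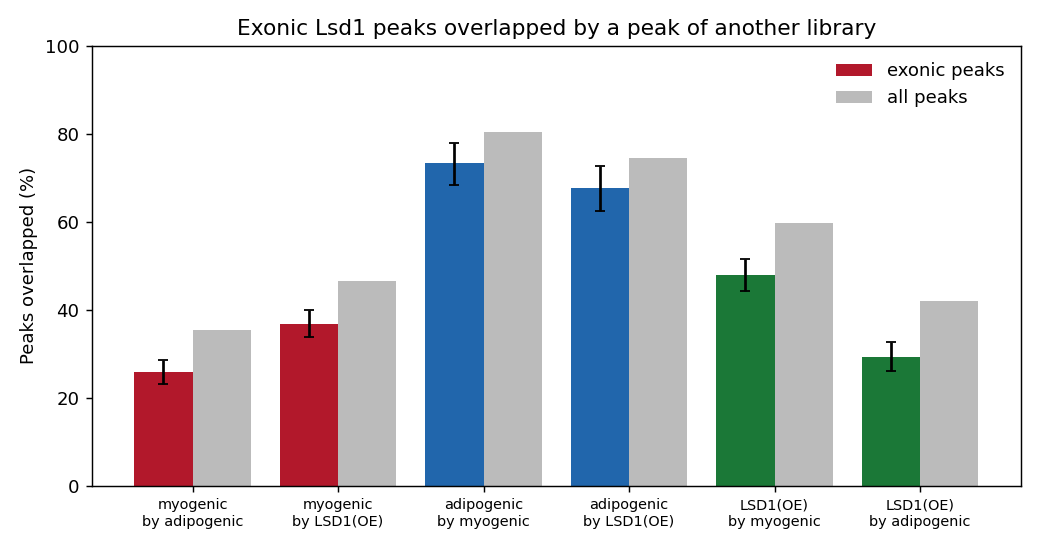
Percent of exonic Lsd1 peaks of a library overlapped by at least 1 bp by a peak of another library (coloured, with 95% Wilson intervals) and the same percent over all peaks of the library (grey). The exonic share is below the grey bar in the 6 pairs, from 25.8% against 35.4% for myogenic by adipogenic to 73.4% against 80.5% for adipogenic by myogenic.

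At 111 myogenic exonic peaks, both other libraries had an exonic peak in the same gene that overlapped it. Their median density was 1.44 tags per 1000 bp of peak per 1000000 ChIP tags in the myogenic, 1.22 in the adipogenic and 1.32 in the LSD1(OE) library. The density was higher in the myogenic than in the adipogenic library at 93 of them (83.8%) and than in the LSD1(OE) library at 74 (66.7%). It was higher in the LSD1(OE) than in the adipogenic library at 80 (72.1%). Shared peaks outside exons were not counted in this way. Median densities of all promoter peaks were 1.44 (myogenic), 1.18 (adipogenic) and 1.24 (LSD1(OE)), and of all intronic peaks 1.16, 1.12 and 1.10. The myogenic median was thus the highest outside exons too. A density depends on where MACS ended each peak and on the recovery of each ChIP, and with 1 library per condition these cannot be told apart from a difference between conditions.

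The 10 of these peaks with the highest minimum score over the 3 libraries are described here. Tchh had scores of 1473.43 (myogenic), 960.81 (adipogenic) and 888.12 (LSD1(OE)), with densities of 1.89, 1.56 and 1.48, in the coding part of its last exon. Tmem44, a transmembrane protein gene, had 920.22, 689.32 and 1308.78 in the 3′ UTR, and Nmt1, an N-myristoyltransferase, had 690.98, 619.47 and 1014.83 there. Both were thus highest in the LSD1(OE) library by score and in the myogenic library by density. Chadl, a chondroadherin-like gene on chromosome 15, had 895.98, 604.82 and 684.13 in an internal coding exon. Cst6 had 1246.72, 592.03 and 1595.41, and its density of 1.37 in the adipogenic library lay below 2.10 and 1.90 in the others.

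The other 5 were Faim2 (964.16, 892.14 and 469.03), Magi2, a synaptic scaffold (1048.32, 464.47 and 380.79), Acvrl1, a BMP type I receptor (890.8, 442.05 and 367.59), Cavin1, a coat protein of caveolae (458.69, 358.61 and 382.56), and nonagouti, symbol a, the agouti signalling protein (541.43, 358.41 and 553.56). The first 4 of these were in the 3′ UTR of the last exon. The lowest of the 3 scores was the adipogenic one at 6 of the 10 genes and the LSD1(OE) one at 4, and the myogenic density was the highest at 9, all but nonagouti.

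**Figure D5:**
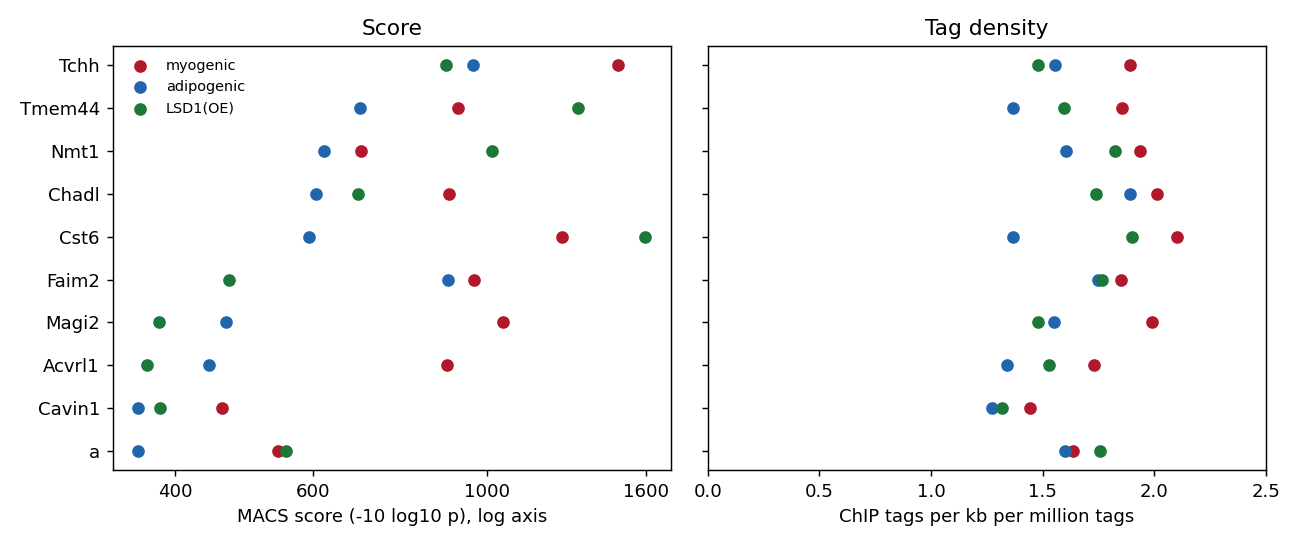
MACS score (left, log axis) and density in ChIP tags per 1000 bp of peak per 1000000 tags (right) of 10 exonic peaks found in the 3 libraries, 1 point per library and gene with no replicate. The myogenic density is the highest for 9 of the 10 genes, for example 1.89 against 1.56 and 1.48 at Tchh, while the scores change order between genes.

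Few genes held several separate exonic regions. Neat1, the long non-coding RNA of paraspeckles, had 8, the largest number. In the myogenic library 8 peaks were spread over its single exon with scores from 61.25 to 1113.57, in the LSD1(OE) library 3 with scores from 53.99 to 311.39 and in the adipogenic library 1 with a score of 279.06. Ccdc162, a coiled-coil gene, had 4 regions in internal coding exons, with scores up to 542.97 (LSD1(OE)). Acox3, a peroxisomal acyl-CoA oxidase, and Ahnak2 had 3 each, with best scores of 560.25 and 407.61, both myogenic.

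The share of genes that hosted an exonic peak rose with the length of their exonic sequence. Of genes with up to 500 exonic bases more than 2000 bp from a TSS, 0.898% hosted a myogenic exonic peak, of those with over 2000 and up to 4000 bases 4.93%, and of those with over 8000 bases 8.68%. The same classes had 0.150, 1.76 and 3.08% in the adipogenic and 0.549, 3.89 and 6.02% in the LSD1(OE) library. A promoter peak of the host gene in the same library was present for 71.5% (68.6 to 74.2%) of myogenic, 50.5% (45.0 to 55.9%) of adipogenic and 61.1% (57.5 to 64.7%) of LSD1(OE) exonic peaks. Intronic peaks had one in 80.1, 66.6 and 75.5%, and all curated genes in 46.8, 27.0 and 37.3%. With equal numbers of peaks per library the exonic shares were closer, at 56.3, 50.5 and 52.9%.

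Of 21477 curated genes with exonic bases more than 2000 bp from a TSS, 4.13% hosted an exonic peak in the myogenic, 1.46% in the adipogenic and 3.07% in the LSD1(OE) library, and 6.40% in any. Genes checked because the study names them, Ttn (the giant sarcomere protein), Glis1, Tnnc1, Mb, Tnnt3, Myog, Myl1, Mef2b, Myh3, Mef2d and Myh1, had none, although Ttn offered 104110 such bases. Of 23 muscle regulators with such bases, 3 had a peak: Tead4 and the Tead cofactor Vgll2 in the myogenic library (scores 75.88 and 106.48) and Tead1 in the LSD1(OE) library (61.07). None of these was overlapped in another library. Of 46 muscle structural and membrane genes, Casq2, the calcium store protein of the sarcoplasmic reticulum (69.99), and Myh9, a non-muscle myosin heavy chain (162.78), had one in the myogenic library. An adipogenic peak (51.39) overlapped that of Casq2 and an LSD1(OE) peak (248.84) that of Myh9, both centred in introns. Musk, the kinase of the neuromuscular junction, had an exonic peak in the adipogenic library (50.51).

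Among 31 adipocyte genes, 3 (9.68%, 3.35 to 24.9%) had an exonic peak in any library, beside 6.40% of all genes. Irs1 had it in the coding part of exon 1 of 2 in each library, with scores of 170.81 (myogenic), 734.44 (adipogenic) and 806.35 (LSD1(OE)) and densities of 1.21, 1.27 and 1.93. These peaks differ in extent: the adipogenic peak was 5475 bp long and reached over the TSS, while the myogenic and LSD1(OE) peaks were 1303 and 1672 bp long and lay apart from promoter peaks of the same libraries with scores of 1255.59 and 1753.86, both above the adipogenic score. Irs2, its paralogue, had a weak myogenic peak (53.41) in its first coding exon. Pparg, the master regulator of adipocytes, had an LSD1(OE) peak in exon 6 of 8 (100.6, 982 bp), and the adipogenic peak over it (128.47, 1482 bp) was centred in the intron.

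Of 28 genes of the Lsd1 complex and its recruiters, 3 (10.7%, 3.71 to 27.2%) had an exonic peak in any library. Of all genes 6.40% did, which lies within that interval. All 3 had it in the LSD1(OE) library. They were Snai1, Zfp217, a zinc finger partner of CoREST (147.82, 5′ UTR), and Zmym2. Zmym2, a zinc finger subunit of Lsd1 complexes, had 259.49 in the 3′ UTR and no peak in the other libraries. At Zfp217 the adipogenic peak (170.12) was centred in the intron. Kdm1a itself had no exonic peak in any library. Of 25 Notch pathway genes 7 (28.0%, 14.3 to 47.6%) had one in any library, 6 in the myogenic, 2 in the adipogenic and 4 in the LSD1(OE) library. These genes are longer than most, with a median of 4141 exonic bases against 2092 for all genes, and 24 of them had a myogenic promoter peak.

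Hey1, a Notch target and bHLH repressor, had an exonic peak in the coding part of its last exon in each library, with scores of 188.5 (myogenic), 157.07 (adipogenic) and 146.24 (LSD1(OE)), centred 2214, 2102 and 2247 bp from a TSS. Its relative Heyl had peaks in the 3′ UTR in the wild-type libraries (89.33 and 60.8). Of the receptors, Notch3 had 2 exonic peaks each in the myogenic (111.97 and 60.97) and the LSD1(OE) library (181.49 and 55.76) and Notch1 a single myogenic peak (50.04). Maml1, the coactivator of the Notch transcription complex, had a peak in its last coding exon in the myogenic (324.34) and LSD1(OE) (236.72) libraries, and a weaker myogenic one in exon 2 (66.14). The glycosyltransferases that modify Notch, Mfng (55.89, myogenic) and Lfng (54.66, LSD1(OE)), had weak peaks.

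Other gene groups differed in how many members had an exonic peak, and also in exonic length. Of all genes 6.40% had one in any library, with a median of 2092 exonic bases. Medians were 5821.5 bases for collagen, 544 for Hox cluster, 891 for histone and 455 for ribosomal protein genes. For histone lysine methylation enzymes the median was 5974. The part of gene length in these shares was not tested. Of 44 collagen genes, which have long coding regions of short exons, 7 (15.9%, 7.93 to 29.4%) had an exonic peak in any library. All lay in internal coding exons, with scores from 54.63 at Col6a3 to 233.33 at Col1a2. Of 33 Hox cluster genes 4 (12.1%, 4.82 to 27.3%) had one, all in the last exon and all in the myogenic library. They were Hoxa9 (69.83), Hoxc9 (125.56), Hoxc10 (336.99) and Hoxc11 (307.92). Hoxc9 had one in the adipogenic library too (110.81), and none of the 4 in the LSD1(OE) library. Of 105 histone genes only 10 had exonic bases far enough from a TSS, and 4 of these (40.0%, 16.8 to 68.7%) had one. They were H2bc6, H2bc21, H2bc23 and H4bc24. A promoter peak was present for all 10 in the myogenic, for 8 in the adipogenic and for 9 in the LSD1(OE) library. Zinc finger genes had 36 of 468 (7.69%), close to all genes. Clustered protocadherins had 2 of 58 (3.45%), olfactory receptors 1 of 118 (0.847%) and histone lysine methylation enzymes 1 of 42 (2.38%). Ribosomal protein genes had 0 of 61, with an upper interval limit of 5.92%.

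The study's inversely regulated genes (IRGs), which moved in opposite directions when LSD1 was overexpressed or depleted, were matched by name. Of 266 such genes that went up with LSD1, 36 (13.5%, 9.94 to 18.2%) had an exonic peak in any library, beside 6.40% of all genes. In the myogenic library 23 had one (8.65%, 5.83 to 12.6%), beside 4.13% of all genes. In the adipogenic library 12 did (4.51%, 2.60 to 7.72%), beside 1.46%, and in the LSD1(OE) library 20 (7.52%, 4.92 to 11.3%), beside 3.07%. Of 63 that went down with LSD1, 2 (3.17%) had one, Npc2 in the myogenic library and Erfe in the LSD1(OE) library. The lists were made by the study on expression in the same cells and are not independent evidence. The genes up with LSD1 had a median of 4604 exonic bases against 2041 for those down and 2092 for all genes. Of all genes with over 4000 and up to 8000 such bases, 7.01% hosted a myogenic, 2.36% an adipogenic and 4.81% an LSD1(OE) exonic peak. The myogenic value lies within the interval of the genes up with LSD1, and the others just below theirs. The part of gene length in these shares was not tested.

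The strongest exonic peak of an IRG was at Deptor, an inhibitor of mTOR, in the 3′ UTR of its last exon. Its scores were 1213.43 (myogenic), 83.01 (adipogenic) and 99.1 (LSD1(OE)), its fold enrichments 6.61, 2.01 and 1.44, and its densities 2.24, 1.16 and 1.42. The myogenic library stood far above both adipogenic-medium libraries there. Ephb2, an ephrin receptor, had peaks in its 3′ UTR with 585.67 (myogenic) and 50.81 (LSD1(OE)) and no adipogenic peak. Pik3r3, a regulatory subunit of PI 3-kinase, had 501.47, 63.95 and 75.32 in the 3′ UTR.

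Jarid2, a partner of Polycomb repressive complex 2, had a coding peak in exon 7 of 18 with 403.29 (myogenic), 89.17 (adipogenic) and 51.77 (LSD1(OE)), and a further peak in exon 13 in the LSD1(OE) library (291.12), which an adipogenic peak overlapped. The myogenic peak in exon 7 was also overlapped by a further peak in each other library, centred in the intron, with scores of 242.35 (adipogenic) and 340.81 (LSD1(OE)). Alpk2, an alpha kinase gene, had a peak in the myogenic library alone (346.49). These 5 genes, chosen for the highest score in any library, each had it in the myogenic library. Scores of different libraries are not on the same scale, so this is not a comparison of conditions.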

How the data were processed

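The data were ChIP-seq libraries for Lsd1 from 3 conditions, each with 1 ChIP and 1 input library. Single reads of 50 bases had been aligned to mm10 by the authors, who ran MACS against each input, in version 1.4.2 per the file headers (1.41, with Bowtie 2, per the labels). For each peak the deposited lists give a count of ChIP tags, a score (-10 times log10 of the p-value), a fold enrichment and an FDR in percent. MACS scaled the ChIP library up to its larger input. The deposited BED files hold the same peaks and, like the reads, were not used here.

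Peak centres were placed on curated RefSeq transcripts (coding before non-coding, then the longest), with Python 3.11.15, numpy 2.4.6 and pandas 2.3.3, and figures with matplotlib 3.10.9. A peak counted as exonic when its centre lay in an exon and more than 2000 bp from every TSS. Overlap meant at least 1 bp. Density is tags per 1000 bp of peak per 1000000 filtered ChIP tags. Sequence was read in 500-bp windows around summits and every 250 exonic bases. Scripts were tested on simulated data. With 1 library per condition no test was run, and 95% Wilson intervals cover counting error only.

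Named genes were the 5 highest-scoring per library, the 10 highest by minimum score over the libraries, the 5 with most regions, the 3 longest per library, every exonic peak of the muscle regulator, adipocyte and Lsd1 complex lists and of genes the study names, and the 5 highest-scoring muscle structural genes and IRGs. Some genes that these rules name are not reported here. Genes of other lists and those with printed sequences were named after their values were seen. Members and lists were chosen with earlier results of these data known.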

Additional observations from a re-analysis of the deposited data

How the results depend on the processing

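Of 147 values of 18 results under 10 alternatives, 84 stayed within the interval of the reported value (or 1.5 times, for counts) and 63 moved. No paired analysis was possible because each condition had 1 library and no test was run. Values are given in the order myogenic, adipogenic, LSD1(OE) unless named. Exonic peaks numbered 431, 146 and 251 at an FDR of at most 0.1% and 451, 171 and 305 at a score of at least 100. With equal numbers of peaks there were 316 (myogenic) and 310 (LSD1(OE)). Another alternative kept peaks whose score, divided by the scaling factor of the library, was at least 50, without calling peaks again. It left 473 (myogenic) and 335 (LSD1(OE)) exonic peaks. The share of peaks that were exonic was 1.84% (myogenic) and 1.59% (LSD1(OE)) at the stricter FDR. It was 1.85 and 1.63% at the stricter score, and 1.67 and 1.64% with equal numbers. It was 1.69, 1.27 and 1.53% more than 5000 bp from a TSS, 2.04, 1.52 and 1.88% with coding transcripts only, and 2.45, 1.97 and 2.31% with GENCODE. The last exon held 69.1, 71.6 and 66.8% with GENCODE and 62.9% (LSD1(OE)) at the stricter FDR.

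With equal numbers of peaks, myogenic exonic peaks were overlapped in 54.1% (adipogenic) and 52.5% (LSD1(OE)), adipogenic ones in 52.6% (myogenic) and 54.5% (LSD1(OE)), and LSD1(OE) ones in 51.9% (adipogenic) and 50.3% (myogenic, within its interval). At the stricter FDR the shares were 28.8 and 40.4% for myogenic peaks, 83.6% for adipogenic by myogenic, and 40.2% (adipogenic) and 61.4% (myogenic) for LSD1(OE) peaks. At the stricter score they were 32.2 and 43.2%, 79.5%, and 39.3 and 57.4%. With scores divided by the scaling factor they were 41.2 and 44.6% for myogenic peaks, 62.2% for adipogenic by LSD1(OE), and 46.9 and 57.3% for LSD1(OE) peaks. Requiring the summit to be covered gave 32.1% (myogenic by LSD1(OE)), 67.5 and 59.8% (adipogenic by myogenic and LSD1(OE)) and 44.1% (LSD1(OE) by myogenic), and an overlap of 50% of the shorter peak gave 62.2% (adipogenic by LSD1(OE)). The cause was not tested beyond the construction of each alternative. The share with a host promoter peak was 61.0, 38.4 and 53.8% at the stricter FDR, 61.9, 37.4 and 53.1% at the stricter score, 56.3% (myogenic) and 52.9% (LSD1(OE)) with equal numbers, and 56.3% (adipogenic) with GENCODE. With 1 library per condition, no difference between conditions can be told apart from a difference between libraries.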

Other observations

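The exonic peak of highest density was in the 3′ UTR of Lars2, the mitochondrial leucyl-tRNA synthetase, with 6.33 (myogenic), 3.82 (adipogenic) and 6.39 (LSD1(OE)) tags per 1000 bp of peak per 1000000 ChIP tags. Its scores of 125.94, 83.31 and 216.23 and its fold enrichments of 3.04, 4.07 and 3.07 were not among the highest of the exonic peaks. The cause was not tested. Nes, the intermediate filament protein nestin, and Syne1, a nuclear envelope protein, had 3 exonic regions each, with best scores of 243.18 and 250.2.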
